A study of Mus musculus with 12 samples.

Results

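Serpina9, Cd4 and Cpne5 are 3 genes whose transcripts were lower in the brain cortex of mice that had drunk ethanol than in that of water-drinking controls. They were chosen by that difference, on the p-value and sign of the comparison of ethanol-administered (EtOH) with control mice: among 657 genes called lower, Serpina9 had the smallest p-value, Cd4 the fourth and Cpne5 the sixth smallest. They are 3 of 33024 gene symbols in the count table and 3 of 16059 that passed a filter on low counts. Their difference between the groups is described below without a test. Tests are given only for other genes and measures, such as how the 3 genes vary together among controls.

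The 3 genes have different textbook roles. Serpina9, also known as centerin, is a secreted serine protease inhibitor of serpin clade A that is best known from germinal centre B cells. Cd4 encodes the surface co-receptor that helper T cells use to bind MHC class II molecules; its cytoplasmic tail recruits the tyrosine kinase Lck, and interleukin 16 is a ligand of the receptor. Cpne5 is a copine, one of a family of cytosolic proteins whose paired C2 domains bind membrane phospholipids when calcium rises.

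Cortex was taken from C57BL/6 mice of the abstinence arm of a drinking study, 7 controls (treatment given as vehicle) and 5 EtOH mice, and its RNA was sequenced in bulk. From 30 days of age and for 35 days, EtOH mice had nightly sessions of 12 h with a bottle of 20% (v/v) ethanol and a bottle of water to choose from, a paradigm named 2BC-DID, while both bottles of the controls held water. Drinking was followed by 14 days without ethanol and then by behavioural tests in both groups. The mice were then perfused with saline and the cortex was taken. The comparison therefore asked which transcripts differed some time after drinking had ended. Ethanol intake was each mouse's own choice and was not fixed by dose, and the tissue was cortex in bulk, holding all of its cell types.

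Depth was similar across the mice except Control 5 and EtOH 1, which had more counts (40690223 and 42183029). Total counts were between 31768076 and 42183029, normalization factors between 0.982 and 1.02, and 3 counts, used as a floor for detection, were worth 0.0711 to 0.0944 CPM (CPM scales a mouse's counts to a common library total). Of the values from 1 to 20 in a library, between 70.9% and 75.3% were even. Why they were even was not tested. Markers of cortical glutamatergic neurons were present in every mouse, with a summed level of 7662 to 9575 CPM in controls and 7908 to 9078 CPM in EtOH mice. Such a sum is carried by its most abundant genes and does not measure how much cortex each sample held. Across all tested genes, 4.09% were called lower and 4.2% higher by edgeR, a call needing an adjusted p under 0.05 together with a difference of over 0.5 on the log2 scale. The median log2 fold change of all tested genes was 7.21e-05. Every EtOH mouse lay below every control for 4.96% of genes and above every control for 4.84%.

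Serpina9 (ENSMUSG00000058260) lies on the minus strand of GRCm39 at chr12:103961002-103980062, within the cluster of clade A serpins, and its 5 exon blocks span 3861 bp of transcript. Its exons overlap those of Gm28577 on the same strand, so reads from the shared stretch cannot be assigned to one of them. Cd4 (ENSMUSG00000023274) is on the minus strand at chr6:124841655-124874758, with 13 exon blocks of 4496 bp and no exonic overlap with another gene. Cpne5 (ENSMUSG00000024008) is on the minus strand at chr17:29374530-29457226, with 25 exon blocks of 13703 bp, and it overlaps Gm50054 and Gm65396 on the opposite strand. Whether the strand of the reads was used in counting is not given in the sources used here.

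The promoter window of Cpne5 is shown because the gene is the most abundant of the 3 and was the 1 of 3 that could be matched to RefSeq's promoter windows (build GRCm38.p6, 250 bases before to 50 after the start). It matched GRCm39 exactly at chr17:29456715-29457014 on the minus strand, wholly inside the gene as Gencode draws it and 212 bases from the gene's 5′ end. Capitals mark the letters CCGCCC, which are GGGCGG, the core of a GC box, on the other strand.
Cpne5: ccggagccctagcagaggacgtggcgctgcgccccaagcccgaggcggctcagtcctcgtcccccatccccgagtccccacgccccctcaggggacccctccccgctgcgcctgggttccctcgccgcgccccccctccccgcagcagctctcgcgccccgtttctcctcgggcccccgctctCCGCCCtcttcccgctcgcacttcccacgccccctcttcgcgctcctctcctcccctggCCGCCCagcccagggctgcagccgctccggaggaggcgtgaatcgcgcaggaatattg

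Of its bases 74.7% were G or C, against a median of 52.7% over 32851 promoter windows of the same length, and 95.8% of windows had less. GGGCGG was found 2 times, both on the other strand, starting at positions 184 and 243 of the window, and 35.7% of all windows held it on either strand. None of the other motifs searched on both strands was in the window. These were TATAAA, in 13.6% of all windows, CCAAT in 37.4%, TGACGTCA in 1.79%, TGANTCA in 7.81%, CAGCTG in 16.3% and CACGTG in 7.15%, and their absence says only that these letters are not in these 300 bases.

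Serpina9 was close to the floor in every EtOH mouse. In the controls its level was 6.44 CPM at the lowest, 13.9 CPM at the median and 16.9 CPM at the highest, from 201 to 532 counts. In EtOH mice 1 to 5 it was 0.0927, 0.0622, 0.119, 0.0607 and 0.122 CPM, from 4, 2, 4, 2 and 4 counts. The groups did not overlap, and the lowest control was 53.0-fold above the highest EtOH mouse. The mean was 12.6 ± 3.93 CPM in controls (SD, n = 7) and 0.0913 ± 0.0295 CPM in EtOH mice (SD, n = 5), and the fitted log2 fold change was -7.04 (SE 0.34). Pooled over mice, 2892 control counts stood against 16 EtOH counts, a ratio of 136 with a 95% exact binomial interval of 83.8 to 239, or of 69.0 to 316 when each count is divided by 2 to allow for the even values. Intervals of this kind cover counting error only. In bulk tissue, fewer cells of a type and less RNA per cell cannot be told apart for any of the genes described here.

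Cd4 was low in the EtOH mice but remained above the floor. Control levels ran from 8.50 CPM through a median of 17.7 CPM to 19.6 CPM, from 265 to 633 counts. EtOH mice 1 to 5 had 0.741, 0.435, 0.477, 0.880 and 0.456 CPM, from 32, 14, 16, 29 and 15 counts. EtOH 1 and EtOH 4 were the higher of the 5, and all lay below every control, with a 9.66-fold gap between the lowest control and the highest EtOH mouse. Mean levels were 15.9 ± 4.38 CPM (SD, n = 7) and 0.598 ± 0.201 CPM (SD, n = 5), the fitted log2 fold change was -4.71 (SE 0.26), and the pooled ratio was 26.0 (95% exact interval 21.5 to 31.9, or 19.8 to 34.9 with each count divided by 2).

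Cpne5 was far more abundant and its difference was smaller and tighter. In controls it was 166 CPM at the lowest, 215 CPM at the median and 228 CPM at the highest. EtOH mice 1 to 5 had 71.0, 81.0, 71.0, 74.4 and 80.6 CPM, each from at least 2383 counts. The EtOH mice were closely grouped and all below the controls, whose lowest mouse was 2.06-fold above the highest EtOH mouse. The mean fell from 204 ± 24.1 CPM (SD, n = 7) to 75.6 ± 4.95 CPM (SD, n = 5), with a fitted log2 fold change of -1.43 (SE 0.08) and a pooled ratio of 2.70 (95% exact interval 2.65 to 2.75).

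**Figure D1:**
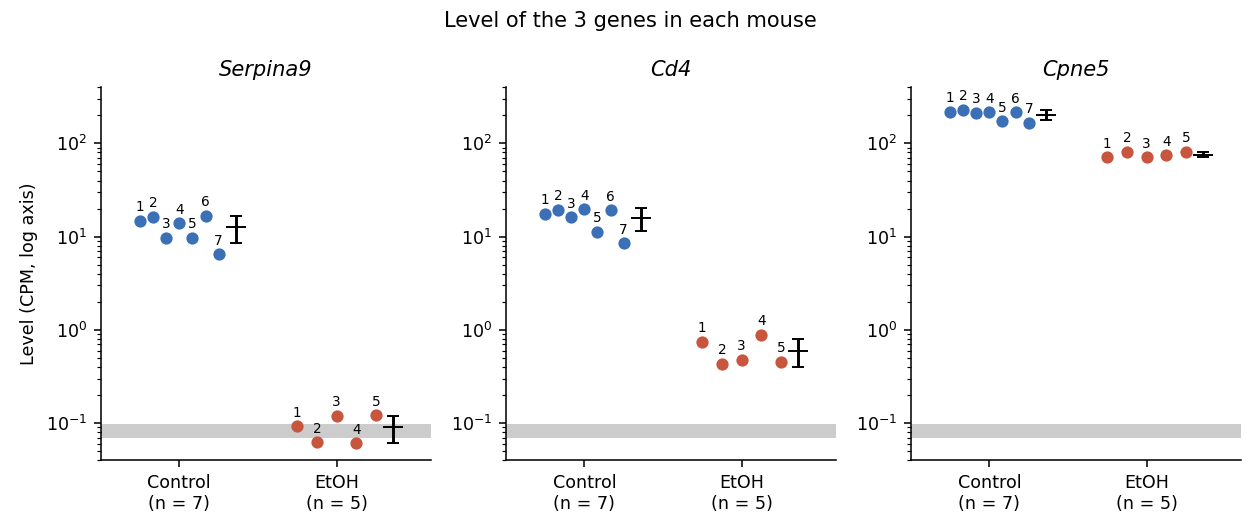
Level of Serpina9, Cd4 and Cpne5 in each of 7 control and 5 EtOH mice, in CPM on a log axis, with mouse numbers above the points, the mean ± SD to the right of each group and the level of 3 counts across the libraries as a grey band. Every EtOH point lies below every control point for each gene, Serpina9 reaches the band, and Control 7 is the lowest control for all 3 genes.

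Relative to the controls, EtOH mice kept 0.734% of Serpina9, 3.84% of Cd4 and 37.1% of Cpne5. By log2 fold change the 3 ranked 5th, 15th and 153rd from the lowest of the 16059 tested genes. Biological coefficients of variation estimated by edgeR were 0.246 for Serpina9, 0.228 for Cd4 and 0.0971 for Cpne5, and 87.4%, 85.0% and 43.1% of tested genes had a lower one. Per kilobase of exon, control levels were 3.25 ± 1.02 CPM per kb for Serpina9, 3.55 ± 0.975 CPM per kb for Cd4 and 14.9 ± 1.76 CPM per kb for Cpne5 (SD, n = 7), so that Serpina9 and Cd4 differed by less than their spread and Cpne5 stood above both. In EtOH mice the corresponding levels were 0.0236 ± 0.00764, 0.133 ± 0.0446 and 5.52 ± 0.361 CPM per kb (SD, n = 5), with the 3 genes clearly apart.

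The balance between the genes also differed between the groups. In controls the ratio of Serpina9 to Cd4 CPM was 0.786 ± 0.0996 (SD, n = 7) and ran from 0.607 to 0.880. In EtOH mice it was 0.171 ± 0.0847 (SD, n = 5), with a highest value of 0.267. The ratio of Cpne5 to Cd4 was 13.5 ± 3.06 in controls and 138 ± 46.3 in EtOH mice. These ratios use the values that chose the genes and describe them only.

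Control 7 stood at the lower end for all 3 genes. Its Serpina9 and Cd4 levels were 47.5% and 49.4% of the mean of the other 6 controls, and its Cpne5 level was 79.1% of theirs. Without this mouse, control means were 13.6 ± 3.14 CPM for Serpina9, 17.2 ± 3.18 CPM for Cd4 and 210.5 ± 19.2 CPM for Cpne5 (SD, n = 6), an alternative chosen after the values were seen. Even Control 7 lay above every EtOH mouse for each gene. The next lowest control was Control 3 for Serpina9 (9.75 CPM) and Control 5 for Cd4 (11.3 CPM) and Cpne5 (173 CPM).

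The p-values that chose the genes used the values of these same 7 controls. They depend on how far each gene on its own varies among controls, but not on whether genes vary together from one control to the next. This joint variation was tested in the 7 controls. Over 9 pairs of measures, log2 CPM values were compared with Pearson's r and an exact permutation test over all orders of the mice. Serpina9 and Cd4 rose and fell together among controls (r = 0.925, exact permutation p = 0.00476, adjusted p = 0.00744, Spearman's rho = 0.714, exact permutation p = 0.0881, n = 7). For Cd4 and Cpne5 r was 0.965 (exact permutation p = 0.00456, adjusted p = 0.00744, rho = 0.821 with p = 0.0341), and for Serpina9 and Cpne5 it was 0.855 (exact permutation p = 0.00496, adjusted p = 0.00744, rho = 0.750 with p = 0.0663). The adjusted p-values of the 3 rank correlations were between 0.0768 and 0.132. The points share each mouse's library and total count.

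Each of the 3 relations passed the threshold without any 1 of Controls 1 to 6 (highest adjusted exact permutation p = 0.0319, n = 6), but not without Control 7 or without 2 mice. Without the 2 controls farthest from the median on the x axis, r was 0.931 for Serpina9 and Cd4 and 0.939 for Serpina9 and Cpne5 (adjusted exact permutation p = 0.18 for both, n = 5), while that of Cd4 and Cpne5 was 0.463 without Controls 5 and 7 (adjusted exact permutation p = 0.568) and so rested on those mice. Without Control 7 alone, r was 0.805 for Serpina9 and Cd4, 0.693 for Serpina9 and Cpne5 and 0.946 for Cd4 and Cpne5, each with an adjusted exact permutation p of 0.0625 (n = 6).

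Markers of striatal spiny neurons, the dopamine-responsive output neurons of the striatum, moved with the 3 genes. This list, like the other marker lists, was chosen with earlier results of these data known, so its direction is no independent evidence. All 15 listed markers were lower in EtOH mice, against 4.09% of all tested genes, among them the dopamine receptor gene Drd2 at -4.97 (SE 0.25) and the G protein regulator gene Rgs9 at -3.13 (SE 0.16) on the log2 scale (edgeR adjusted p = 1.14e-09 for both), with a list median of -2.63 against 7.21e-05 over all tested genes. Their summed level was 1745 to 3666 CPM in controls and 523 to 600 CPM in EtOH mice, and their score (mean log2 CPM) was 6.79 ± 0.384 in controls (SD, n = 7) and 4.02 ± 0.133 in EtOH mice (SD, n = 5), lower in 5 of 5 EtOH mice. No marker of the list was at 0. Serpina9 fell by 7.04 on the log2 scale, more than any of the 15 markers, Cd4 fell by 4.71, between the list's Drd2 and Adora2a (-4.58), and Cpne5 fell by 1.43, near Adcy5 at -1.41, the least lowered marker. What part these markers have in the levels of the 3 genes was not tested.

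Within the controls, too, the striatal score followed the 3 genes. With Serpina9 r was 0.967 (exact permutation p = 0.00198, adjusted p = 0.00595, rho = 0.893 with exact p = 0.0123). With Cd4 r was 0.939 (exact permutation p = 0.00139, adjusted p = 0.00595, rho = 0.893 with exact p = 0.0123), and with Cpne5 it was 0.893 (exact permutation p = 0.00119, adjusted p = 0.00595, rho = 0.857 with exact p = 0.0238). Adjusted over the 9 pairs, the rank correlations had p-values of 0.0554, 0.0554 and 0.0714 (exact permutation). Control 7 had the lowest striatal score, 6.07 against 6.60 to 7.25 in the other controls. Without it r was 0.920, 0.821 and 0.782, with adjusted exact permutation p-values of 0.0625, 0.0625 and 0.0667 (n = 6), and without Controls 5 and 7, the 2 farthest from the median, it was 0.871, 0.819 and 0.849 with an adjusted exact permutation p of 0.18 (n = 5).

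**Figure D2:**
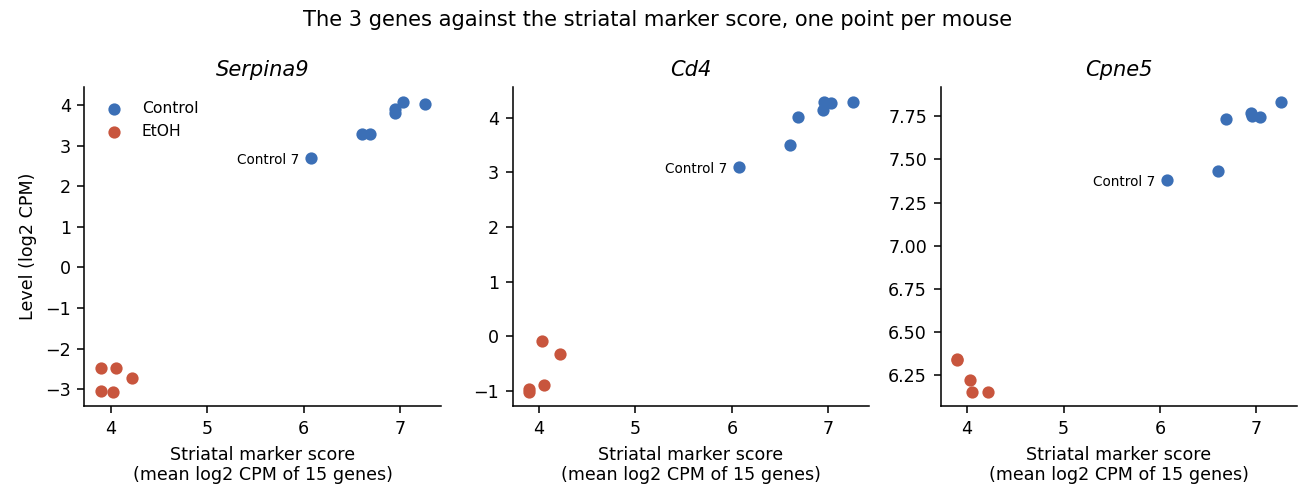
Level of each gene (log2 CPM) against the striatal marker score (mean log2 CPM of 15 genes), one point per mouse, controls in blue and EtOH mice in red. Controls run from Control 7 at 6.07 to a score of 7.25, and the 5 EtOH mice sit apart at scores of 3.89 to 4.22 with lower levels of all 3 genes.

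With the score of cortical glutamatergic neuron markers no relation passed the threshold over all 7 controls. Here r was -0.714 with Serpina9 (exact permutation p = 0.0700, adjusted p = 0.0901, rho = -0.571), -0.599 with Cd4 (exact permutation p = 0.171, adjusted p = 0.193, rho = -0.571) and -0.485 with Cpne5 (exact permutation p = 0.270, adjusted p = 0.270, rho = -0.536). Rank correlations had exact permutation p-values of 0.2, 0.2 and 0.236. Without Control 5 each passed the threshold (r = -0.856, -0.834 and -0.832, highest adjusted exact permutation p = 0.0281, n = 6). Without Controls 2 and 7 they were -0.0769, 0.312 and 0.593, so for Cd4 and Cpne5 the negative sign rested on those mice.

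Genes with the most similar pattern over the 7 controls are given as a description, among 14125 genes of at least 1 CPM. For Serpina9 they were Pde7b, a cAMP phosphodiesterase (r = 0.994), Gng7, a G protein gamma subunit (0.986), Rps6ka5, a nuclear kinase (0.986), Bcl11b, a transcription factor of deep-layer cortical and striatal neurons (0.985), and Kcnab1, a potassium channel subunit (0.979). In EtOH mice Pde7b fell by 1.52 and Gng7 by 1.33 on the log2 scale (edgeR adjusted p = 1.67e-07 and 3.16e-07). The log2 fold changes of Rps6ka5, Bcl11b and Kcnab1 were -0.34, -0.45 and -0.35, under the minimum for a call. Pde7b remained the most similar gene without Control 7, at r = 0.998 (n = 6).

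Closest to Cd4 were Btbd19 (r = 0.985), Sec14l3 (0.982), Tgfa, a ligand of the epidermal growth factor receptor (0.977), D430036J16Rik (0.975) and Tacr1, the substance P receptor (0.974). Of these, Tgfa fell by 0.99 and Tacr1 by 2.24 on the log2 scale (edgeR adjusted p = 4.68e-07 and 1.43e-05), and the other 3 were not called. For Cpne5 the nearest were Sec14l3 (0.994), Tmem91 (0.985), Rasd2, a small GTPase of striatal neurons and a member of the striatal list (0.980), Rxrg, a retinoid X receptor (0.973), and Casd1, a sialic acid O-acetyltransferase (0.972). Here Rasd2 fell by 1.93, Rxrg by 2.60 and Tmem91 by 0.60 on the log2 scale (edgeR adjusted p = 4.11e-09, 6.65e-06 and 0.000565). Sec14l3, near in pattern to both Cd4 and Cpne5 among controls, had a log2 fold change of 0.72 that did not pass (SE 0.32, edgeR adjusted p = 0.112).

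An r above 0.9 over the controls was reached with Serpina9 by 108 genes, or 0.765% of those compared, and by 11 of 15 striatal markers. With Cd4 it was reached by 83 genes (0.588%) and 10 of 15 markers, and with Cpne5 by 94 genes (0.665%) and 7 of 15. Without Control 7 the numbers of striatal markers above 0.9 were 2, 4 and 2 of 15. Of all compared genes 0.977%, 1.73% and 2.89% were then above 0.9. No other control was left out for these numbers.

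The copine family did not move as one. All 9 copines passed the filter, and of the 8 besides Cpne5, 2 were higher, 1 was lower and 5 were not called, with a median log2 fold change of 0.28; 8.29% of all tested genes were called in either direction. Cpne6, a neuronal copine of dendritic spines that is abundant in hippocampus, had 376, 290, 419, 464 and 328 CPM in EtOH mice 1 to 5 and 159 to 186 CPM in controls. Its mean rose from 171 ± 11.9 CPM (SD, n = 7) to 375 ± 69.3 CPM (SD, n = 5), or by 1.14 on the log2 scale (SE 0.09, edgeR adjusted p = 1.32e-07). Cpne7 was 171, 90.7, 253, 249 and 133 CPM in the EtOH mice against 40.6 to 52.3 CPM in controls, a log2 fold change of 1.97 (SE 0.18, edgeR adjusted p = 6.59e-07), and its exons overlap 2 other genes. For both, all 5 EtOH mice lay above every control, and EtOH 3 and EtOH 4 were the highest.

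Cpne9 was the other copine that fell. EtOH mice 1 to 5 had 34.6, 49.9, 28.4, 40.6 and 44.3 CPM and controls 58.4 to 88.1 CPM, without overlap, a log2 fold change of -0.83 (SE 0.13, edgeR adjusted p = 0.000172). EtOH 3, with the lowest Cpne9, had the highest Cpne7. The log2 fold changes of Cpne1, Cpne2, Cpne3, Cpne4 and Cpne8 were 0.45, 0.37, 0.12, 0.08 and 0.19, with edgeR adjusted p-values from 0.082 to 0.567. The 3 calls among copines other than Cpne5 held in each fit that left out 1 mouse.

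Markers of hippocampal neurons moved alongside Cpne6 and Cpne7. Of 10 listed markers 9 were higher in EtOH mice, against 4.2% of all tested genes, with a median log2 fold change of 2.71, and their summed level was 107 to 149 CPM in controls and 240 to 333 CPM in EtOH mice. Fibcd1, a marker of CA1 pyramidal cells, rose by 2.62 (SE 0.14, edgeR adjusted p = 1.46e-09) and C1ql2, a synaptic organizer of mossy fibres, by 4.29 (SE 0.23, edgeR adjusted p = 1.53e-09) on the log2 scale. Their score was 0.878 ± 0.175 in controls (SD, n = 7) and 3.30 ± 0.407 in EtOH mice (SD, n = 5), higher in 5 of 5 EtOH mice, and this list too was chosen with earlier results known. What part either these or the striatal markers have in the copine differences was not tested.

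**Figure D3:**
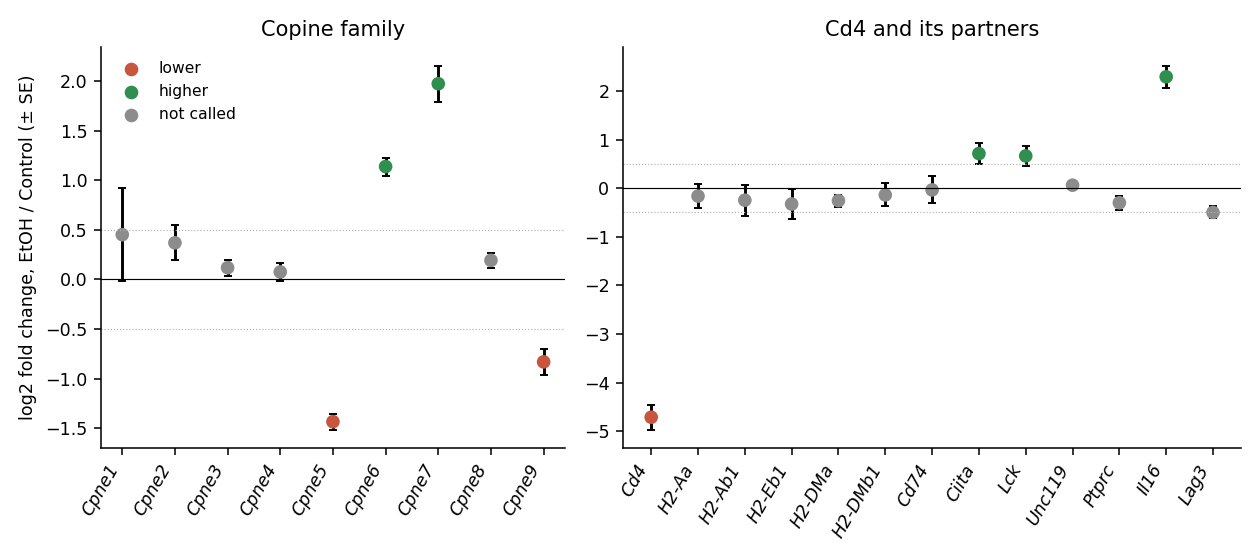
Log2 fold change of EtOH against control mice (± SE) for the 9 copines and for Cd4 with its 12 partners, with the minimum of 0.5 for a call as dotted lines. Cpne5 at -1.43 and Cpne9 at -0.83 lie below and Cpne6 at 1.14 and Cpne7 at 1.97 above, and Cd4 at -4.71 stands apart from its partners, whose highest is Il16 at 2.29.

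Among the serpins, most clade A genes apart from Serpina9 and Serpina3n had few counts in this tissue. Of 25 listed clade A genes 24 were in the table and 2 were tested, and the other 22 had between 0 and 80 counts summed over 12 mice, with Serpina1b, Serpina1c, Serpina3a, Serpina3f, Serpina3k, Serpina3m and Serpina6 at 0. Serpina3n, a secreted inhibitor known from reactive astrocytes, was 18.0 ± 2.80 CPM in controls (SD, n = 7) and 18.8 ± 3.07 CPM in EtOH mice (SD, n = 5), and its log2 fold change of 0.06 was not called (SE 0.12, edgeR adjusted p = 0.752). With a filter of 1 count in any mouse, Serpina12 and Serpina3g were also tested and both were higher, from at most 80 counts each in total.

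From the other serpin clades, 11 of 17 listed genes were tested, 3 were lower and none was higher, with a median log2 fold change of -0.11, where 4.09% of all tested genes were lower and 4.2% higher. Serpinb8, an intracellular inhibitor of furin, fell from 17.5 ± 3.43 CPM (SD, n = 7) to 7.99 ± 1.57 CPM (SD, n = 5), by 1.13 on the log2 scale (SE 0.14, edgeR adjusted p = 2.31e-05), with all 5 EtOH mice below every control. Serpinb1a, an inhibitor of neutrophil proteases, had -0.54 (edgeR adjusted p = 0.00750), and its call was lost without Control 6 or EtOH 4. Without EtOH 4 only 1 of the list was called. Neuroserpin, encoded by Serpini1 and the most abundant serpin of the list, was 249 ± 12.1 CPM in controls and 255 ± 18.4 CPM in EtOH mice (log2 fold change 0.04, edgeR adjusted p = 0.661).

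Of the 12 partners of CD4, 3 were called higher and 0 lower, where 4.2% of all tested genes were higher and 4.09% lower, and their median log2 fold change was -0.15. Il16, which encodes the ligand interleukin 16, was 7.16, 6.44, 8.05, 8.40 and 3.04 CPM in EtOH mice 1 to 5 and 0.994 to 2.22 CPM in controls. Every EtOH mouse lay above every control, although EtOH 5 was well below the other 4. Il16 rose by 2.29 on the log2 scale (SE 0.23, edgeR adjusted p = 1.63e-06), and 2 other genes overlap its exons. Lck, the kinase that CD4 carries, rose from 1.01 ± 0.232 CPM to 1.61 ± 0.307 CPM (edgeR adjusted p = 0.0258), and Ciita, the transactivator of MHC class II genes, from 1.40 ± 0.390 CPM to 2.29 ± 0.584 CPM (edgeR adjusted p = 0.0251; SD, n = 7 and 5), but neither call held without EtOH 5. Ciita was also lost without any 1 of Control 3, EtOH 1 and EtOH 4, and Lck without EtOH 3. What part the hippocampal markers have in the Il16 and Lck differences was not tested.

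The MHC class II chains that CD4 binds were low in both groups and not called. H2-Aa was 1.65 ± 0.486 CPM in controls and 1.47 ± 0.502 CPM in EtOH mice, and the log2 fold changes of H2-Aa, H2-Ab1, H2-Eb1 and the invariant chain gene Cd74 were -0.16, -0.25, -0.33 and -0.04 (edgeR adjusted p = 0.670, 0.611, 0.462 and 0.940). H2-DMa and H2-DMb1, which load peptides on class II, had -0.26 and -0.14. Unc119, an adaptor of Lck, had 0.06, and Ptprc, the phosphatase CD45, had -0.30. Lag3, a class II receptor related to CD4, had -0.50 (SE 0.12, edgeR adjusted p = 0.00731), just short of the minimum fold change, and was called lower without any 1 of Controls 1, 2, 4 and 7 or EtOH 4.

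Levels of T and B cell markers were uneven, and some defining markers were near 0 in both groups. The CD3 chains Cd3e, Cd3d and Cd3g, which every T cell carries, together had 37 counts in all 12 mice, 25 in controls and 12 in EtOH mice and at most 6 counts of a gene in a mouse, where Cd4 had 3662 counts in controls. The B cell gene Ms4a1, which encodes CD20, had 12 counts in all, where Serpina9 had 2892 counts in controls. The CD3 genes and Ms4a1 were singled out after their values were seen, and other listed genes were more abundant. Of 16 listed T cell markers 14 were in the table and 4 were tested: the T cell receptor constant gene Trbc2 was lower (12.3 ± 2.38 CPM in controls and 5.79 ± 2.34 CPM in EtOH mice, a log2 difference of -1.08, SE 0.20, edgeR adjusted p = 0.000781), the kinase gene Zap70 was higher (0.78, SE 0.21, edgeR adjusted p = 0.0121), and the other 2 were not called, where 4.09% of all tested genes were lower and 4.2% higher. Their list's summed level was 13.04 to 18.5 CPM in controls and 8.46 to 13.8 CPM in EtOH mice. The Zap70 call was lost in a fit with replicate number as a block.

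Of 13 B cell markers 8 were tested, 2 were lower and 1 was higher, against 4.09% and 4.2% of all tested genes. The immunoglobulin heavy chain gene Ighm was 47.8 ± 8.16 CPM in controls and 25.2 ± 11.3 CPM in EtOH mice and fell by 0.93 on the log2 scale (SE 0.19, edgeR adjusted p = 0.00236). The adaptor gene Blnk was 11.7 ± 2.63 CPM in controls and 5.04 ± 0.852 CPM in EtOH mice and fell by 1.21 (SE 0.16, edgeR adjusted p = 2.88e-05). Fcer2a rose by 0.84 (edgeR adjusted p = 0.0112), and the summed level was 91.5 to 112 CPM in controls and 69.7 to 101 CPM in EtOH mice. Neither list's score differed past the threshold (T cells -0.21, exact permutation p = 0.167, adjusted p = 0.214; B cells -0.20, exact permutation p = 0.0985, adjusted p = 0.148), but both did without EtOH 2, at -0.31 and -0.29 (adjusted exact permutation p = 0.0227 and 0.0164). The part of T and B cells in the levels of Cd4 and Serpina9 was not tested.

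The score of microglia markers was lower by a small amount. The 13 tested genes all had negative log2 fold changes, with a median of -0.29, and 1, the complement gene C1qb (-0.52, SE 0.08, edgeR adjusted p = 7.8e-05), was called; 4.09% of all tested genes were called lower. The C1qb call was lost without Control 2 or Control 4. Their summed level was 446 to 509 CPM in controls and 380 to 407 CPM in EtOH mice, and the score differed by -0.28 (exact permutation p = 0.00253, adjusted p = 0.00568, lower in 5 of 5 EtOH mice). Monocyte and dendritic cell markers summed to 30.7 to 35.4 CPM in controls and 28.1 to 35.7 CPM in EtOH mice, with 1 of 5 tested genes, Lyz2, called lower (-0.55, edgeR adjusted p = 0.0259) and the call lost without any 1 of Controls 2, 4 and 6 or EtOH 1, 4 and 5. Their score differed by -0.19 (exact permutation p = 0.0404, adjusted p = 0.0727), and past the threshold without EtOH 1 (-0.24, adjusted exact permutation p = 0.0109).

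Cortical interneuron markers included 3 of 8 that were lower (2 of 8 without any 1 of Controls 1, 3 and 7 or EtOH 1 and 3), with a list median of -0.35, a summed level of 1377 to 1676 CPM in controls and 1086 to 1230 CPM in EtOH mice and a score difference of -0.42 (exact two-sided permutation p = 0.00126, the smallest that 792 splits allow, adjusted p = 0.00379 over 9 lists, lower in 5 of 5 EtOH mice). Npy, a neuropeptide gene, fell by 0.77 and Gad2, which makes GABA, by 0.63 on the log2 scale (edgeR adjusted p = 9.4e-05 and 0.000288). The 5 that were not called lay between -0.39 and -0.21. What part the striatal markers have in these levels was not tested. Across all tested genes 4.09% were lower and 4.2% higher. Of 10 cortical glutamatergic markers 1, Fezf2, was higher, and the list's score differed by 0.03 (exact permutation p = 0.646, adjusted p = 0.646). The list's log2 fold changes ran from -0.42 to 0.60, so the score averages shifts in both directions. Red cell markers summed to 9.18 to 128 CPM in controls and 9.74 to 74.0 CPM in EtOH mice, none of 5 was called by edgeR (0 had an unadjusted p under 0.05), and the score differed by 0.66 (exact permutation p = 0.369, adjusted p = 0.415). Control 6 had the highest red cell score, 3.79, and the next control 1.14. Without Control 6, 3 of the 5 red cell markers, Hba-a2, Hbb-bs and Hbb-bt, were called higher and the score differed by 1.11 (exact permutation p = 0.0433, adjusted p = 0.0779), and without EtOH 1 or EtOH 4 it differed by 0.30 or 0.99 with no marker called. The striatal list was the only one of the 9 in which every listed gene was lower and called. All 9 lists were chosen with earlier results of these data known, so this is no independent evidence.

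**Figure D4:**
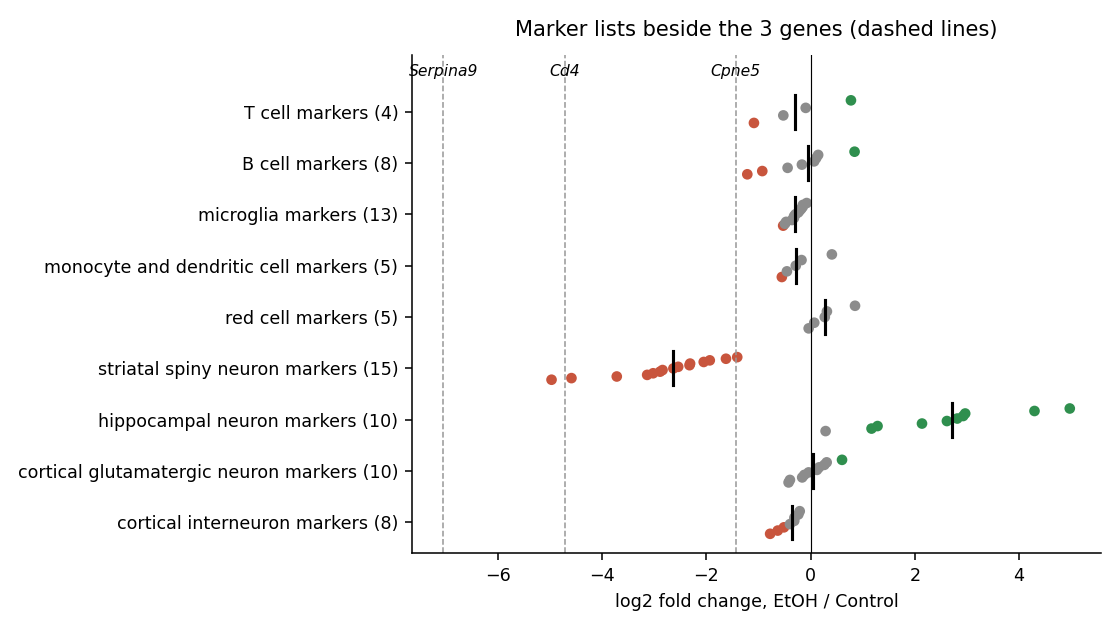
Log2 fold change of EtOH against control mice for each tested gene of 9 marker lists (number tested in parentheses), lower calls in red, higher calls in green, others in grey, a bar at each list's median and dashed lines at the 3 genes. Striatal markers, from -4.97 to -1.41, span the values of Cd4 and Cpne5, and the T and B cell markers lie between -1.21 and 0.84.

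Genes next to the 3 on the chromosome were called about as often as tested genes in general. Of the 5 nearest tested genes on either side of each, 30 in all, 1 was lower, 1 was higher and 28 were not called, where 4.09% of all tested genes were lower and 4.2% higher, and their median log2 fold change was -0.10. Beside Serpina9 the nearest tested genes were Ppp4r4, a protein phosphatase subunit 379 kb away (-0.13), and the clade A serpin Serpina3n 393 kb away (0.06). Ifi27l2a, Ifi27, Ddx24, Otub2, Dicer1, Syne3 and Snhg10 were not called, and Clmn, 749 kb away, rose by 0.63 (SE 0.08, edgeR adjusted p = 2.20e-05).

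Around Cd4 the genes are close together. Gpr162, an orphan receptor gene 0.527 kb away, was 192 ± 7.51 CPM in controls (SD, n = 7) and 191 ± 5.78 CPM in EtOH mice (SD, n = 5), a difference of -0.01 on the log2 scale (edgeR adjusted p = 0.882), and Lag3 lies 6.56 kb away on the other side. P3h3, Cdca3, Usp5, Tpi1, Ptms, A230083G16Rik, Mlf2 and Cops7a, all within 60.3 kb, were not called and lay between -0.58 and 0.14. Ptms at -0.46, Mlf2 at -0.33 and Cops7a at -0.29 had adjusted p-values of 0.00111, 0.00119 and 0.00240 (edgeR) with a difference below the minimum fold change, as had Lag3. With no minimum fold change, 11.6% of all tested genes were lower at an adjusted p under 0.05. Ptms was called without Control 5, as was Cdca3 without EtOH 4.

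Beside Cpne5, Cdkn1a, which encodes the cyclin-dependent kinase inhibitor p21 and lies 54.8 kb away, fell from 25.7 ± 5.59 CPM (SD, n = 7) to 12.8 ± 4.38 CPM (SD, n = 5), and its log2 value differed by -1.004 (SE 0.19, edgeR adjusted p = 0.000974), with 2 other genes overlapping its exons. Ppil1, a splicing-associated isomerase gene 12.6 kb away on the other side, had -0.20 (edgeR adjusted p = 0.0885). Srsf3, Stk38, Kctd20, Bnip5, BC004004, Pi16, Mtch1 and Fgd2 were not called, with log2 fold changes from -0.47 to 0.27.

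**Figure D5:**
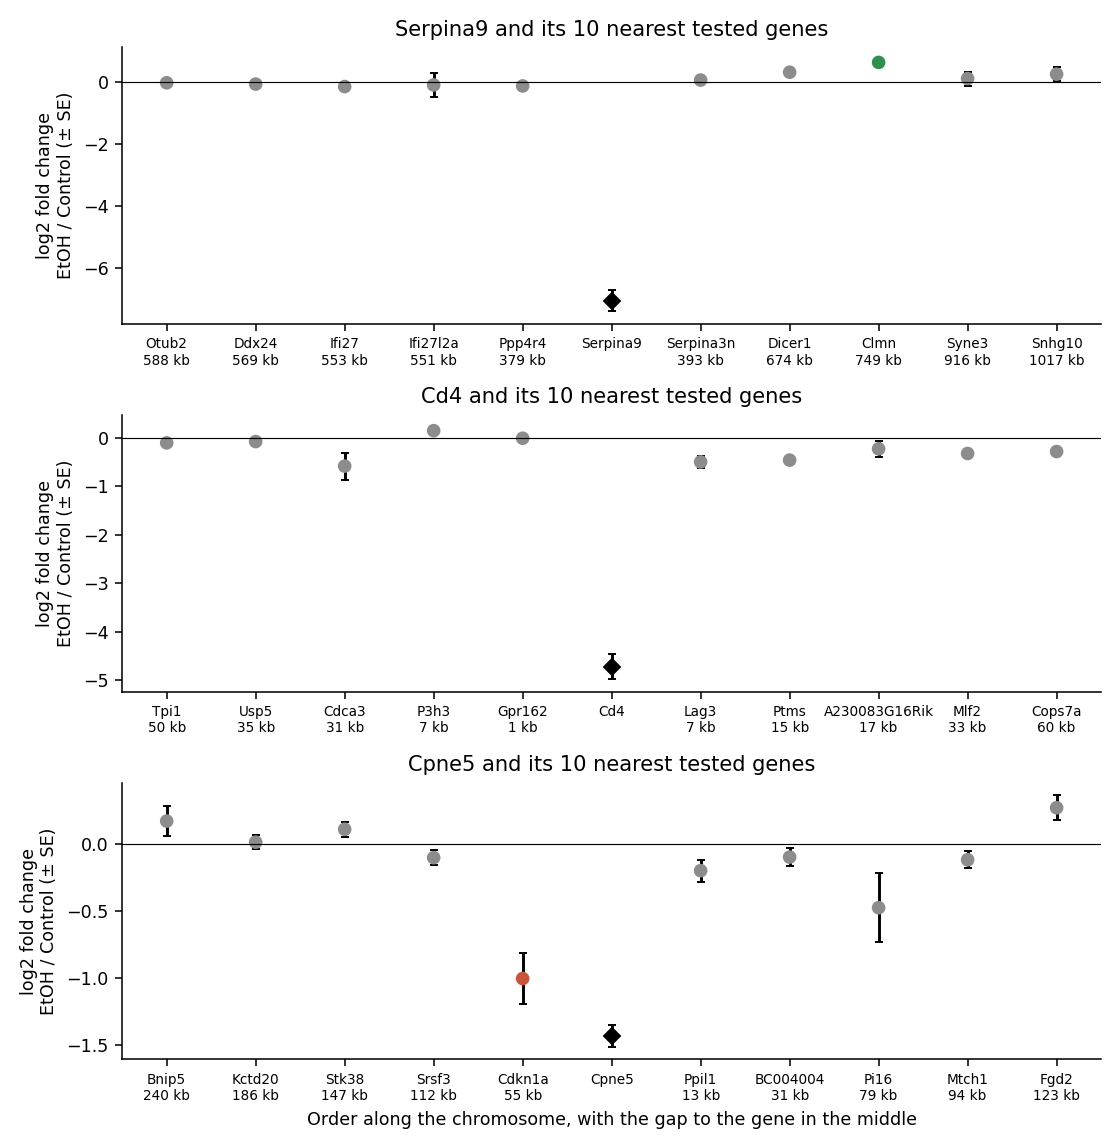
Log2 fold change of EtOH against control mice (± SE) for each gene, as a black diamond, and its 5 nearest tested genes on either side, with the gap in kb under each name. The 30 neighbours lie between -1.004 (Cdkn1a, red) and 0.63 (Clmn, green), and the other 28, in grey, were not called.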

How the data were processed

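RNA from the cortex of 12 mice was sequenced on the DNBSEQ platform. The authors ran FastQC 0.11.9 on the reads, STAR for alignment to GRCm39 (Gencode release 28) and featureCounts for counting, and compared groups with DESeq2. The deposited table holds expected counts per gene symbol without normalization. For 61 symbols values were not whole and all were rounded; 0 columns were left unmatched. Strand, pairing and multi-mapping settings are not given in the sources used here.

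Genes were kept with filterByExpr, normalized with TMM and compared with edgeR's quasi-likelihood test (R 4.3.3, edgeR 4.0.16, limma 3.58.1) with Benjamini-Hochberg adjustment over 16059 genes. As in the study, a call required an adjusted p under 0.05 together with a difference of over 0.5 on the log2 scale. CPM used TMM-scaled totals, and log2 CPM a prior count of 2. List scores are means of log2 CPM, compared by exact permutation of the 12 mice. The simulated comparison of 5 with 7 libraries over 15905 genes had 200 changed genes, of which edgeR recovered 186 with 3 false calls.

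The 3 genes and all lists were chosen with earlier results of these data known, and the 3 genes by the contrast described. Named genes were those 3, every tested copine, clade A serpin and CD4 partner, the called members of other lists by count and the 2 of smallest p, 5 neighbours on either side, and the 5 genes of highest r. Where a text example was not among these, it was chosen after its values were seen; this holds for Adora2a, Adcy5, Serpini1, Serpina12, Serpina3g, Fcer2a, Ms4a1 and the CD3 genes. A few listed genes enter the counts only and are not reported here by name. Positions are from Gencode release 39 on GRCm39. Alternatives were DESeq2 1.42.0, limma voom, other normalizations, filters and fold minimums, a replicate block and each mouse left out in turn. The study describes the samples as mice of its abstinence arm, and no 2 libraries of the same group agreed within sampling noise.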

Additional observations from a re-analysis of the deposited data

Results flagged for a closer look

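Of 130 groups of 4 to 10 mice examined, 14 held a mouse far from the others by Dixon's criterion, where chance gives about 6.5, since it marks about 1 in 20 groups. None of the 14 was a level of Serpina9, Cd4 or Cpne5. Among CD4 partners, Il16 was high in Control 5 (log2 CPM 1.19, nearest control 0.52) and low in EtOH 5 (1.63, nearest 2.70), and Lck was low in Control 7 (-0.65, nearest -0.0319). Among copines, Cpne1 was low in EtOH 1 (log2 CPM -3.25, nearest -1.04). Of the neighbouring genes, Control 5 was apart for Cops7a (7.19, nearest 7.38), Ptms (8.69, nearest 9.004) and Srsf3 (6.37, nearest 6.59), EtOH 2 for P3h3 (4.42, nearest 4.67), EtOH 4 for Snhg10 (-0.0909, nearest 0.55) and EtOH 1 for Stk38 (5.32, nearest 5.48), all on the log2 CPM scale. The score of monocyte and dendritic cell markers was high in Control 2 (2.35, nearest 2.08) and that of red cell markers in Control 6 (3.79, nearest 1.14). Total counts were high in Control 5 (40690223, nearest 32356913) and EtOH 1 (42183029, nearest 33313165).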

How the results depend on the processing

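Each alternative named here without a remark was planned; means and similar genes without Control 7 and counts divided by 2 were added after the values were seen. Serpina9, Cd4 and Cpne5 kept their direction in every alternative that gave a value, with log2 fold changes of -7.16 to -6.94, -4.88 to -4.63 and -1.48 to -1.41 when 1 mouse was left out; Serpina9 had no value with a filter of 10 counts in every mouse. DESeq2 gave -7.10, -4.73 and -1.43. Over all genes, 576 to 783 were higher and 586 to 727 lower with 1 mouse left out, 1947 and 1863 with no minimum fold change, and 242 and 282 with a minimum of 1.

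A filter of 1 count in any mouse gave 2 higher clade A serpins and 2 lower T cell markers, since it tested more genes. Leaving out 1 mouse gave 1 to 3 lower among other serpins, 1 to 3 higher and 0 to 1 lower among CD4 partners, 1 to 2 lower T cell, 0 to 3 lower microglia, 0 to 1 lower monocyte and dendritic cell and 0 to 3 higher red cell markers, and 1 to 3 lower neighbours; score differences were -0.314 to -0.0727 (T cells), -0.29 to -0.14 (B cells), -0.24 to -0.14 (monocytes and dendritic cells) and 0.303 to 1.11 (red cells, without EtOH 1 and without Control 6). The 3 red cell calls came without Control 6.

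Replicate numbers did not pair the mice: over 5 pairs of equal number, correlations of deviations were -0.108 to 0.0182 and 0 mice correlated best with their own number. With the replicate block, 690 genes were higher and 634 lower, log2 fold changes were -7.08, -4.80 and -1.47 for Serpina9, Cd4 and Cpne5, CD4 partners had 2 higher (Lck lost) and 1 lower (Lag3), T cell markers 0 higher, microglia 2 lower, monocytes and dendritic cells 0 lower, red cells 5 higher and neighbours 2 lower.

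Of the correlations over controls, ranges with 1 control left out were 0.805 to 0.975 (Serpina9 and Cd4), 0.693 to 0.944 (Serpina9 and Cpne5), 0.946 to 0.973 (Cd4 and Cpne5), 0.920 to 0.977, 0.821 to 0.958 and 0.782 to 0.957 (striatal score with Serpina9, Cd4 and Cpne5), and -0.856 to -0.349, -0.834 to -0.0324 and -0.832 to 0.0522 (cortical glutamatergic score with Serpina9, Cd4 and Cpne5). Without the 2 farthest mice they were 0.931, 0.939 and 0.463 between the 3 genes, 0.871, 0.819 and 0.849 with the striatal score, and 0.312 (Cd4) and 0.593 (Cpne5) with the cortical score, at n = 5. As deviations from group means over 12 mice, they were 0.566, 0.679 and 0.587 between the genes and 0.695 for Cpne5 with the striatal score, no longer past the threshold. The cause of these shifts was not tested. Genes near the floor, such as Serpina9 in EtOH mice, rest on few counts.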
